A study of Homo sapiens with 4 samples.

Results

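ERH, a small conserved protein that binds the Microprocessor, and 9 genes of the microRNA machinery were followed through an RNA immunoprecipitation sequencing (RIP-seq) experiment on the RNA-binding protein QKI7. The 10 genes were taken by symbol from the 26830 gene rows of the authors' table: ERH, DROSHA, DGCR8, XPO5, DICER1, TARBP2, AGO1, AGO2, AGO3 and AGO4. ERH was chosen because its ratio of RIP to input was high in these same libraries, so its values are a description and carry no test. The other 9 were chosen for their function. A fit across 10415 genes took every gene that averaged 1 TPM or more in the 4 libraries. AGO4 fell short of that level, and the other 9 entered the fit.

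The cells were U2OS, a human osteosarcoma line, infected with a lentivirus for 3 x Flag-QKI7 and selected by GFP. QKI7 is an isoform of QKI, a protein that binds RNA through a KH-type domain. Flag-RIP libraries (n = 2) held RNA recovered with a Flag antibody after ultraviolet cross-linking, lysis and sonication, and input libraries (n = 2) held RNA of the same kind of lysate with no antibody. All 4 libraries therefore carry the transgene, and a mock precipitation or cells without the tag were not analysed here. Whether replicates 1 and 2 are separate cultures is not stated in the labels. The p-values thus speak of the spread among these 4 libraries, which may be technical.

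Most microRNAs are cut from long primary transcripts by the Microprocessor, in which the nuclease DROSHA works with the RNA-binding protein DGCR8. ERH binds DGCR8 and helps the complex process poor hairpins that lie beside good ones. Exportin 5, the product of XPO5, carries the precursor hairpin to the cytoplasm, where DICER1 with its partner TARBP2 cuts it again. One strand is then loaded into an Argonaute protein, AGO1 to AGO4, which is guided by it to target mRNAs. The measurements here are of the mRNAs of these proteins, and give no protein or microRNA level.

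Values are TPM, a share of each library corrected for length, which hold no read depth, so no counting interval is given. 7SL RNA took 39.8% and 43.4% of the TPM in Flag-RIP, against 84.6% and 79.7% in input, and the spike-ins took 18.9% and 25.6% in Flag-RIP, against 2.78% and 3.89% in input. The library median of the tested genes was 1.32 higher in Flag-RIP than in input on the log2(TPM + 1) scale. The cause of that shift was not tested. A centred change below is a difference in log2(TPM + 1), Flag-RIP minus input, after each library was shifted to a common median. QKI had 60.7 and 42.0 TPM in Flag-RIP, against 3.83 and 5.85 TPM in input, and its reads can come from the transgene or the endogenous gene. Of 10 mesenchymal or osteosarcoma markers, 6 were at 1 TPM or above in both inputs, and the list summed to 1034 and 811 TPM in Flag-RIP, against 314 and 419 TPM in input. The bone markers ALPL and BGLAP were under 1 TPM in both inputs, and all 5 leukocyte markers were under 1 TPM in all 4 libraries. Of 5 epithelial markers 1 reached 1 TPM in any library, the tight junction gene CLDN4, with 6.67 and 6.35 TPM in Flag-RIP, against 2.37 and 3.77 TPM in input. Of 5 neuronal markers 1 did, the splicing factor gene RBFOX3, with 4.64 and 2.11 TPM in Flag-RIP, against 0.30 and 0.75 TPM in input.

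ERH mRNA was far more abundant in Flag-RIP than the mRNAs of the rest of the machinery. It had 560 and 222 TPM in Flag-RIP, against 5.81 and 7.24 TPM in input. Both RIP libraries lay above both inputs, as in 96.7% of the tested genes. The ratio of mean TPM was 59.9, against a median ratio of 3.31 over the tested genes. By that ratio ERH had rank 15 among the 10371 tested genes with a ratio. The lowest of the 4 possible RIP to input ratios was 30.6 and the highest 96.4. The centred change was 4.24, the fifth highest (rank 5) of the 10415 tested genes. SCARNA2, with a centred change of 4.36, ranked just above it, and FXYD6, with 3.90, just below.

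The size of the ERH ratio differed between the RIP replicates. ERH was 2.53 times as high in replicate 1 as in replicate 2 of Flag-RIP, whereas the other 9 genes had 0.954 to 1.30 times the replicate 2 level in replicate 1. In the inputs ERH was 1.25 times as high in replicate 2 as in replicate 1, and the other 9 genes were 1.38 to 1.83 times as high. Without Flag-RIP replicate 1 the centred change of ERH was 3.62, and without Flag-RIP replicate 2 it was 4.87. Scaled to the spike-ins, ERH remained higher in Flag-RIP, by 2.97.

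**Figure D1:**
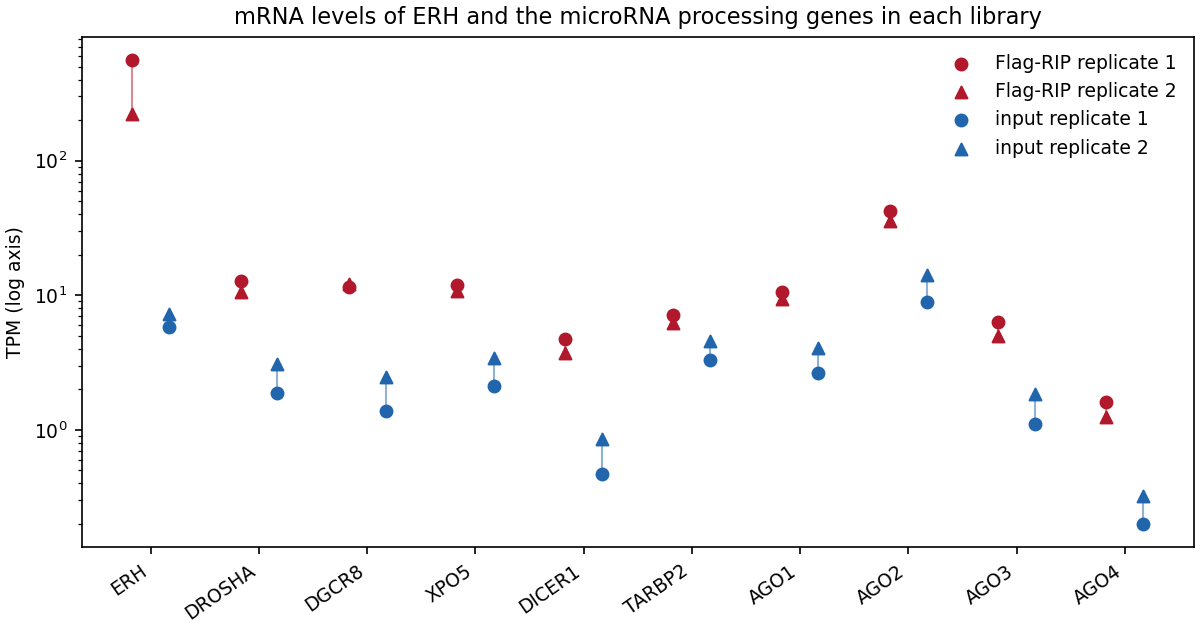
TPM of the 10 genes in each of the 4 libraries on a log axis, with Flag-RIP left of input for each gene and lines joining the replicates. ERH is the highest gene in Flag-RIP, at 560 and 222 TPM, while in input AGO2 is the highest, at 8.94 and 14.03 TPM.

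The ERH gene spans bases 69380128 to 69398299 of chromosome 14 (minus strand, GRCh38.p14). Its span overlaps that of GALNT16, an O-glycosylation enzyme gene on the plus strand, by 6210 bases. The sources used here do not give whether the authors' counting used strand. GALNT16 had 5.31 and 5.18 TPM in Flag-RIP, against 2.07 and 2.98 TPM in input, a ratio of 2.08. GALNT16 was thus below the median ratio where ERH was far above it. RefSeq also lists the pseudogenes ERHP1 and ERHP2, and how reads shared with them were divided was not tested.

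Among the genes most like ERH across the 4 libraries were FXYD6, SCARNA2, SCARNA7 and ATPIF1. Likeness was the Euclidean distance between log2(TPM + 1) profiles, each gene taken relative to its own mean over the 4 libraries. The distances were 0.39 for FXYD6, a regulator of the sodium pump, 0.54 for SCARNA2 and 0.61 for SCARNA7, both Cajal body RNAs, and 0.64 for ATPIF1, an older symbol of ATP5IF1, whose protein inhibits ATP synthase in mitochondria. FXYD6 had 211 and 70.7 TPM in Flag-RIP, against 2.11 and 2.53 TPM in input. These 4 were higher in RIP replicate 1 than in RIP replicate 2, by 1.57 times (SCARNA7) to 2.99 times (FXYD6), as was ERH. They were picked for profiles like that of ERH in these same libraries, so the shared difference is a description and gives no support.

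The mRNAs of both core Microprocessor subunits rose on the centred scale, though neither was called after spike-in scaling (-0.05 for DGCR8 and -0.40 for DROSHA). DGCR8 had 11.5 and 12.1 TPM in Flag-RIP, against 1.37 and 2.45 TPM in input. Its ratio of mean TPM was 6.17, and its centred change was 0.84 (SE 0.11, limma adjusted p = 0.0021). DROSHA had 12.8 and 10.6 TPM in Flag-RIP, against 1.87 and 3.08 TPM in input. Its ratio was 4.75, and its centred change was 0.57 (SE 0.12, limma adjusted p = 0.0079). Both genes had RIP values above both inputs in TPM, as did 96.7% of the tested genes. On the centred scale 95.2% of the tested genes had a smaller change than DGCR8 and 90.4% a smaller one than DROSHA.

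In the fit across all tested genes, 16.4% were called higher and 24.4% lower on the centred scale (limma, adjusted p under 0.05). Of the 8 tested genes other than ERH, 3 were called higher (DGCR8, DROSHA and XPO5), 1 lower (TARBP2), and 4 were not called. Their median centred change was 0.36, against -0.11 over all tested genes. All 10 genes, ERH and AGO4 included, had both RIP values above both inputs in TPM, as did 96.7% of the tested genes. After centring, 5 of the 8 (DGCR8, DROSHA, XPO5, DICER1 and AGO2) had both RIP values above both inputs, as did 29.4% of the tested genes, and 1 (TARBP2) had both below, as did 47.3%. DICER1 is among the 8 only through its RIP values, as both its inputs were under 1 TPM. In the deposited values, without centring, all 8 were called higher, as were 92.3% of the tested genes. Scaled to the spike-ins none was called higher and 4 were called lower (AGO1, AGO2, AGO3 and TARBP2), against 3.06% and 60.5% of the tested genes. Without input replicate 1 the 4 called changes were 0.77 for DGCR8, -0.65 for TARBP2, 0.52 for DROSHA and 0.35 for XPO5. These were close to the values from all 4 libraries, but in a fit with 1 input none was called (limma adjusted p of 0.053, 0.065, 0.12 and 0.21 in that order). Without input replicate 2, DGCR8 (0.92) and TARBP2 (-0.67) remained called, and DROSHA (0.63) and XPO5 (0.46) did not.

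**Figure D2:**
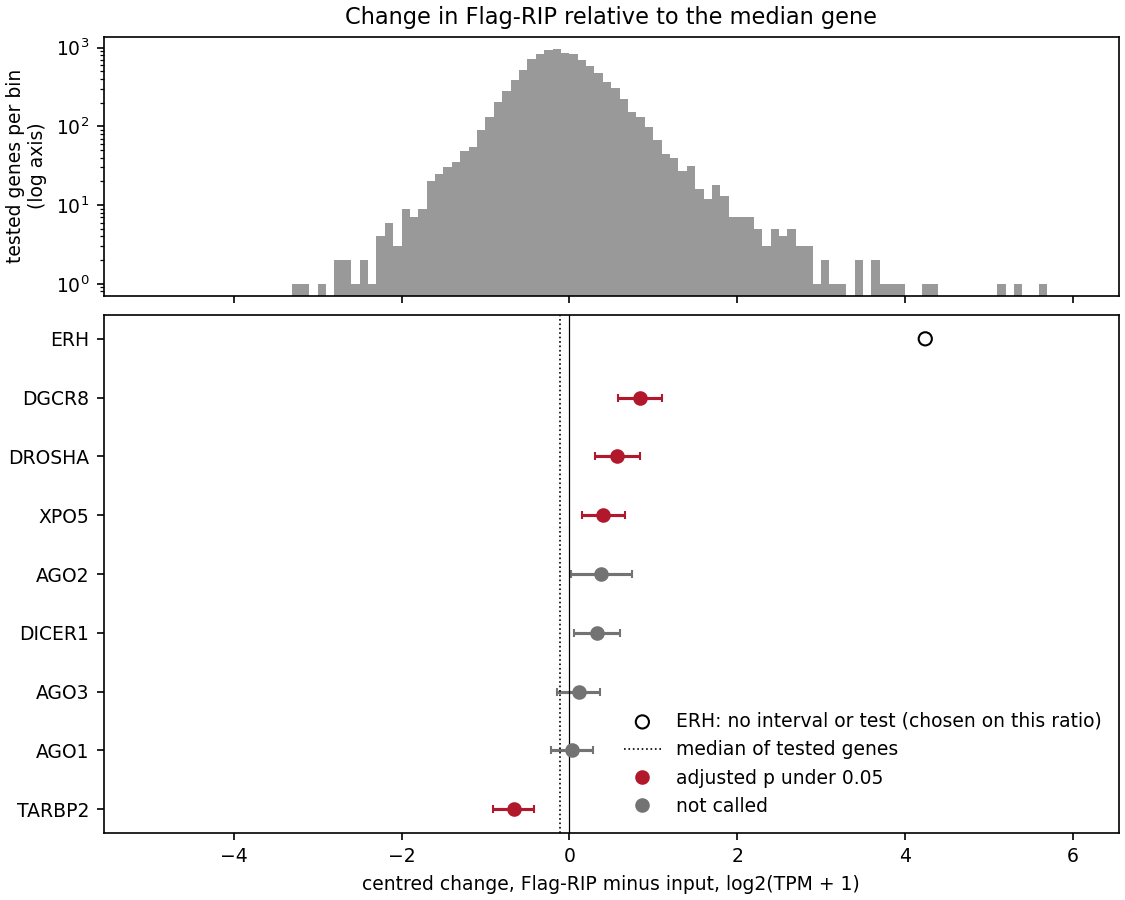
Top, centred changes of the 10415 tested genes in bins of log2(TPM + 1) difference, with the number of genes per bin on a log axis. Bottom, the 9 genes that entered the fit with 95% confidence intervals from limma (n = 2 libraries a group), red where the adjusted p is under 0.05, with ERH shown with no interval. DGCR8, at 0.84, is the highest of the tested microRNA genes after ERH, and TARBP2, at -0.66, is the lowest.

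DGCR8 lies on the plus strand of chromosome 22, from base 20080241 to 20111872, and DROSHA on the minus strand of chromosome 5, from base 31400494 to 31532093. Within the DGCR8 gene, on the same strand, RefSeq places the microRNA genes MIR3618 and MIR1306. Human DGCR8 mRNA is itself known to be cut by the Microprocessor at hairpins that it carries. In RefSeq (GRCh38.p14), 5 mature microRNAs lie inside these 10 genes, 3 in DGCR8 and 2 in DICER1, and no seed is shared among them. They are shown because they lie within the spans of genes described here, with the seed (bases 2 to 8) in capitals.
hsa-miR-3618: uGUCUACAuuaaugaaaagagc
hsa-miR-1306-5p: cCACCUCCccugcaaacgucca
hsa-miR-1306-3p: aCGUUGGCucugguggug
hsa-miR-3173-5p: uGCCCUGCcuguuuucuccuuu
hsa-miR-3173-3p: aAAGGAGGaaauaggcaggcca

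The MIR1306 row followed DGCR8 in direction. It had 6.40 and 6.34 TPM in Flag-RIP, against 0 and 0.63 TPM in input. Both inputs were under 1 TPM, so the row entered the fit only through its RIP values, and it is named for its place inside DGCR8, chosen after its values were seen. Its change is therefore a description with no test: 1.21 on the centred scale and 1.43 when scaled to the spike-ins, where DGCR8 was at -0.05. Reads from the hairpin and from the DGCR8 mRNA around it cannot be told apart when a gene has 1 value, and TPM of so short a row depends on the length correction. MIR3618, also in DGCR8, and MIR3173, in DICER1, are listed at 0 in all 4 libraries.

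The ratio of one gene to another within a library does not depend on how libraries are scaled. ERH had 48.7 and 18.4 times the TPM of DGCR8 in Flag-RIP, against 4.24 and 2.96 times in input. Against DROSHA the multiples were 43.6 and 20.8 in Flag-RIP and 3.11 and 2.35 in input, and against QKI they were 9.23 and 5.28 in Flag-RIP and 1.52 and 1.24 in input. ERH stood above each of the 3 genes in all 4 libraries, and the groups did not overlap. As ERH was chosen for its high ratio of RIP to input, that separation is a description and gives no support. ERH made up 83.7% and 70.2% of the summed TPM of the 10 genes in Flag-RIP, against 20.9% and 17.3% in input.

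The core subunits were at similar TPM in every library. The DROSHA to DGCR8 ratio was 1.12 and 0.882 in Flag-RIP, against 1.36 and 1.26 in input. The groups did not overlap, but the gap between the nearest libraries, 1.12 and 1.26, was smaller than the gap between the RIP replicates. With 2 libraries against 2, the smallest two-sided exact permutation p for any such ratio is 0.333, so that test could not call a difference, and the ratios within libraries are given by their values alone.

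**Figure D3:**
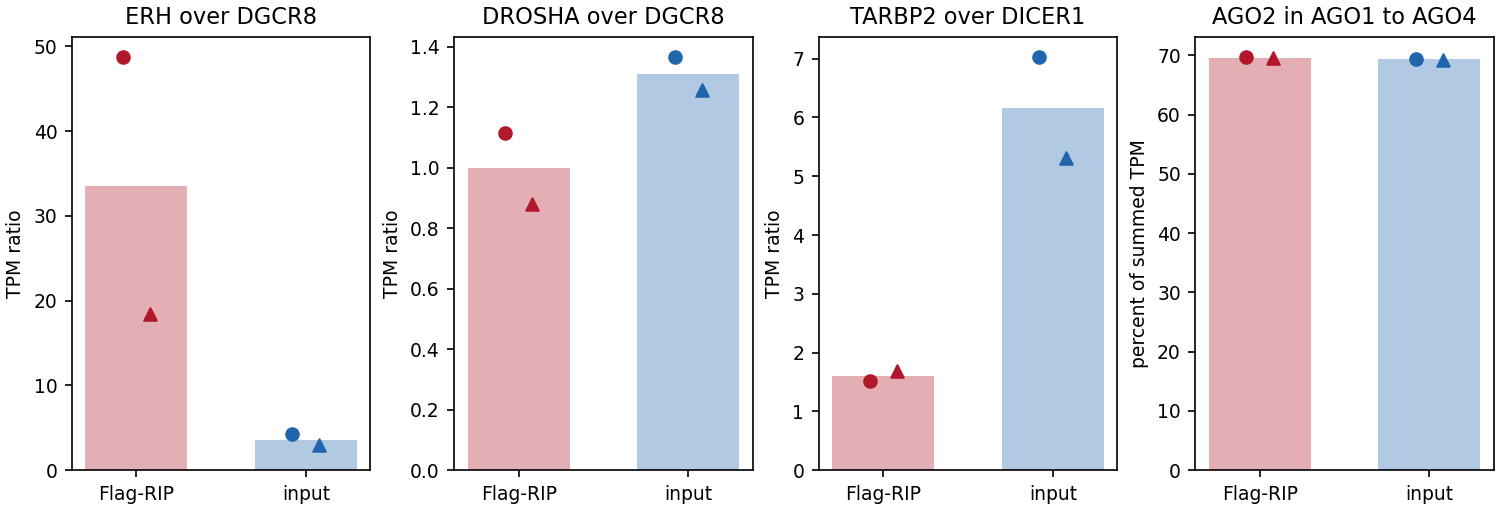
Ratios of TPM within each library, and the share of AGO2 in the summed TPM of AGO1 to AGO4, with bars at the mean of 2 libraries, circles for replicate 1 and triangles for replicate 2. ERH over DGCR8 is higher in Flag-RIP, TARBP2 over DICER1 is lower there, and the AGO2 share lies between 69.3% and 69.7% in all 4 libraries.

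XPO5, the gene of the export receptor, rose by a small margin on the centred scale, but had -0.60 when scaled to the spike-ins (limma adjusted p = 0.069). It had 11.9 and 10.7 TPM in Flag-RIP, against 2.12 and 3.43 TPM in input. Such a separation in TPM was seen in 96.7% of the tested genes. The ratio of mean TPM was 4.07, and the centred change was 0.41 (SE 0.11, limma adjusted p = 0.022). With a pseudocount of 0.1 the change was 0.30 and was not called (limma adjusted p = 0.070). XPO5 runs on the minus strand of chromosome 6, from base 43522334 to 43576038. POLR1C, a subunit gene of RNA polymerases I and III on the plus strand, overlaps 40074 bases of its span. POLR1C had 3.53 and 3.35 TPM in Flag-RIP, against 1.63 and 2.14 TPM in input, and was called lower on the centred scale at -0.69 (limma adjusted p = 0.0027). Without input replicate 1 it had -0.62 and was not called (limma adjusted p = 0.073).

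The mRNAs of Dicer and of its partner lay at different ends of the range of ratios. DICER1 had 4.73 and 3.70 TPM in Flag-RIP, against 0.47 and 0.86 TPM in input, so it entered the fit through its RIP values. Its ratio of mean TPM, 6.34, was the highest of the 10 genes after ERH. Its centred change was 0.33 (SE 0.12, limma adjusted p = 0.056) and was not called. That change depended on the pseudocount, which weighs on low genes: it was 0.81 with 0.1, where it was called, and 0.03 with 5. It was also called after quantile normalization (0.45) and with the 20 most abundant rows left out (1.34). Without Flag-RIP replicate 2 it was 0.44. As DICER1 was tested only because of its RIP values, these calls are a description and give no support for a rise.

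TARBP2, which encodes the double-stranded RNA-binding partner of Dicer, had the lowest ratio of the 10 genes. It had 7.15 and 6.27 TPM in Flag-RIP, against 3.30 and 4.57 TPM in input, a ratio of 1.71. Its TPM was higher in both RIP libraries, yet it fell by 0.66 on the centred scale (SE 0.10, limma adjusted p = 0.0033). The median centred change of all tested genes was -0.11. Only 10.4% of the tested genes had a lower centred change. On the deposited scale its change was 0.65, and with the 20 most abundant rows left out it was -0.50 and was not called (limma adjusted p = 0.11).

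Within each library, TARBP2 had 1.51 and 1.69 times the TPM of DICER1 in Flag-RIP, against 7.02 and 5.31 times in input. The mean ratio was 1.60 ± 0.13 in Flag-RIP and 6.17 ± 1.21 in input (SD, n = 2). The groups did not overlap, as in nearly all gene pairs compared within libraries. The input ratios divide by DICER1 at 0.47 and 0.86 TPM, and DICER1 was tested only through its RIP values, so they are a description. DGCR8 had 2.43 and 3.26 times the TPM of DICER1 in Flag-RIP, against 2.91 and 2.85 times in input, and there the groups overlapped.

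DICER1 lies on the minus strand of chromosome 14, from base 95086228 to 95158010, and TARBP2 on the plus strand of chromosome 12, from base 53500923 to 53506431. The first bases of TARBP2 overlap the kinase gene MAP3K12, on the minus strand, by 617 bases. MAP3K12 had 10.99 and 10.6 TPM in Flag-RIP, against 1.73 and 2.99 TPM in input, and its centred change was 0.52 (limma adjusted p = 0.0092), the opposite direction to TARBP2. With 1 input the change was of similar size but not called (0.44, limma adjusted p = 0.14 without replicate 1, and 0.60, limma adjusted p = 0.054 without replicate 2). The antisense gene DICER1-AS1, which overlaps DICER1 by 323 bases, was at or below 0.17 TPM in every library.

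None of the Argonaute mRNAs was called on the centred scale. AGO2, the Argonaute that can slice its targets, had 42.4 and 35.3 TPM in Flag-RIP, against 8.94 and 14.03 TPM in input. Its ratio of mean TPM was 3.38, and its centred change was 0.38 (SE 0.16, limma adjusted p = 0.085). AGO1 had 10.5 and 9.31 TPM in Flag-RIP, against 2.65 and 4.03 TPM in input, and its centred change was 0.03 (SE 0.11, limma adjusted p = 0.85). AGO3 had 6.33 and 4.95 TPM in Flag-RIP, against 1.10 and 1.86 TPM in input, and its centred change was 0.11 (SE 0.11, limma adjusted p = 0.43).

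Every Argonaute had both RIP values above both inputs in TPM, as did 96.7% of the tested genes. None of the 3 that were tested was called after centring. The 95% confidence intervals of the centred change were 0.02 to 0.75 for AGO2, -0.22 to 0.28 for AGO1 and -0.14 to 0.37 for AGO3. With a pseudocount of 5, AGO2 was called at 0.76 (limma adjusted p = 0.0021). With the 20 most abundant rows left out AGO3 was called at 0.65, where the median change of all tested genes was 0.45. That fit gave a gene's own spread no weight, so its call is not comparable with those of the main fit. AGO4 was the lowest of the 10 genes, with 1.61 and 1.24 TPM in Flag-RIP, against 0.20 and 0.32 TPM in input, a ratio of 5.48 that rests on low inputs.

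The share of AGO2 among the Argonaute mRNAs was nearly the same in all 4 libraries, while that of AGO4 was higher in Flag-RIP. AGO2 made up 69.7% and 69.5% of the summed TPM of AGO1 to AGO4 in Flag-RIP, against 69.4% and 69.3% in input. AGO1 made up 17.3% and 18.3% in Flag-RIP, against 20.6% and 19.9% in input, and AGO3 10.4% and 9.74% in Flag-RIP, against 8.53% and 9.19% in input. AGO4 made up 2.65% and 2.44% in Flag-RIP, against 1.55% and 1.58% in input. The order AGO2, AGO1, AGO3, AGO4 held in all 4 libraries. AGO4 (bases 35807636 to 35857890), AGO1 (35869761 to 35930532) and AGO3 (35930718 to 36072500) are neighbours on the plus strand of chromosome 1, and AGO2 is on chromosome 8.

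Ordered by the ratio of mean TPM, the genes ran ERH (59.9), DICER1 (6.34), DGCR8 (6.17), AGO4 (5.48), DROSHA (4.75), XPO5 (4.07), AGO3 (3.81), AGO2 (3.38), AGO1 (2.97) and TARBP2 (1.71). The ends of the order stood apart, though ERH was chosen for its ratio. The lowest ERH ratio between any RIP and input library, 30.6, was above the highest of DICER1, 10.1, and the highest TARBP2 ratio, 2.17, was below the lowest of AGO1, 2.31. All other neighbours in the order had overlapping ranges. Dividing libraries of the same number gave the same order in both replicates apart from DICER1 with DGCR8 and XPO5 with AGO3. In that order 52.2% of the tested genes had a lower ratio than AGO2 and 89.4% a lower one than DICER1.

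Other genes of the microRNA pathway were read in 6 lists by role, with 83 genes in all, of which 74 were tested. On the centred scale 17 rose, 6 fell and 51 were not called, beside the 16.4% of tested genes called higher and 24.4% called lower. The median centred change of the 74 genes was 0.06, against -0.11 over all tested genes. Their median ratio of mean TPM was 3.38, against 3.31. Of the 74 genes, 10 had both inputs under 1 TPM and were tested only because of their RIP values, and 1 of these (TNRC6C) is among the 17. The same holds for CNOT2, CNOT6 and TUT4, whose mean inputs were 0.875, 0.91 and 0.97 TPM, and TUT4 is also among the 17. Scaled to the spike-ins, 1 was higher and 45 were lower. Without input replicate 1 the counts were 3 and 0, the 3 being NCBP2, TNRC6A and PABPC1, and without input replicate 2 they were 6 and 0.

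Among 17 tested Microprocessor cofactors and cap-binding partners, 5 rose and 0 fell, with a median of 0.12. NCBP2, the small subunit of the nuclear cap-binding complex, rose by 1.31 (SE 0.12, limma adjusted p = 0.000695), with 19.8 and 16.7 TPM in Flag-RIP, against 1.56 and 2.73 TPM in input. The helicase gene DDX17 rose by 0.74 (SE 0.16, limma adjusted p = 0.011). Its paralogue DDX5, a helicase of the same complex named after its value was seen, rose by 0.71 (limma adjusted p = 0.016). NCBP1, the large cap-binding subunit, was also picked with its value known, and at -0.17 it was not called. After spike-in scaling NCBP2 had 0.36, DDX17 -0.56 and DDX5 -0.59, and none of them was called.

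Of the 5 genes whose proteins bind ERH, all were tested and none was called in limma, with a median of 0.15. SLTM, a relative of the scaffold attachment factor SAFB, had 16.1 and 18.2 TPM in Flag-RIP, against 3.31 and 5.87 TPM in input, and a centred change of 0.42 (limma adjusted p = 0.056). SLTM was called with the replicate block (0.42, limma adjusted p = 0.043) and with the robust variance model (limma adjusted p = 0.042). Without Flag-RIP replicate 1 its change was 0.54. CIZ1, a nuclear matrix protein, had 28.5 and 26.6 TPM in Flag-RIP, against 10.9 and 15.5 TPM in input, and a centred change of -0.29 (limma adjusted p = 0.13). The changes of these 5 genes spanned -0.29 to 0.42.

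Among 13 genes for partners of Dicer, export and Argonaute loading, 0 rose and 3 fell, with a median of -0.10. PRKRA, which encodes PACT, a relative of TARBP2 that also binds Dicer, fell by 0.52 (SE 0.11, limma adjusted p = 0.010). It had 4.74 and 3.79 TPM in Flag-RIP, against 1.78 and 2.26 TPM in input, a ratio of 2.11. PRKRA had -0.43 without input replicate 1 and -0.60 without input replicate 2. With the 20 most abundant rows left out it had -0.21 and was not called. The chaperone gene HSPA8 fell by 0.56 (SE 0.18, limma adjusted p = 0.041), a call that the replicate block ended (limma adjusted p = 0.084). With 1 library left out HSPA8 had -0.43 to -0.68 and was not called (limma adjusted p of 0.053 to 0.27). FKBP4, a co-chaperone of HSP90 named to complete the 3, fell by 0.41 (limma adjusted p = 0.047), and was not called with the replicate block (limma adjusted p = 0.086). Its change was -0.36 to -0.45 without any single library other than Flag-RIP replicate 2, and was not called there (limma adjusted p of 0.16 to 0.17).

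The GW182 proteins, which link Argonautes to deadenylation, and their partners gave 5 genes that rose and 1 that fell among 14 tested, with a median of 0.17. PABPC1, the cytoplasmic poly(A)-binding protein, rose by 2.29 (SE 0.35, limma adjusted p = 0.0028), with 952 and 432 TPM in Flag-RIP, against 39.7 and 67.0 TPM in input. TNRC6A rose by 1.44 (SE 0.12, limma adjusted p = 5.5e-04), with 19.2 and 15.3 TPM in Flag-RIP, against 1.33 and 2.08 TPM in input. The other two GW182 genes are named after their values were seen: TNRC6B had a centred change of 0.17 and was not called (limma adjusted p = 0.26). TNRC6C, counted among the 5, had 6.69 and 5.14 TPM in Flag-RIP, against 0.49 and 0.77 TPM in input. It entered the fit only through its RIP values, so its centred change of 0.76 is given as a description.

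Among 14 tested genes of translational repression and decapping, 3 rose and 1 fell, with a median of 0.11. The helicase gene DDX6 rose by 0.57 (SE 0.10, limma adjusted p = 0.0045) and LIMD1, which encodes an Argonaute-binding LIM protein, by 0.50 (SE 0.13, limma adjusted p = 0.020). After spike-in scaling DDX6 had -0.26 and LIMD1 -0.31, and neither was called. Among 11 tested genes for the tailing and decay of microRNAs and precursors, 4 rose and 1 fell, with a median of 0.16. DIS3L2, an exonuclease that degrades uridylated precursors, rose by 0.52 (SE 0.10, limma adjusted p = 0.0069), but had -0.34 after spike-in scaling and was not called there. TUT4 (listed as ZCCHC11), a terminal uridylyltransferase counted among the 4, had 5.43 and 5.72 TPM in Flag-RIP, against 0.66 and 1.28 TPM in input. Its mean input, 0.97 TPM, was under the filter, so it was tested only because of its RIP values. Its centred change of 0.44 is therefore given as a description.

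**Figure D4:**
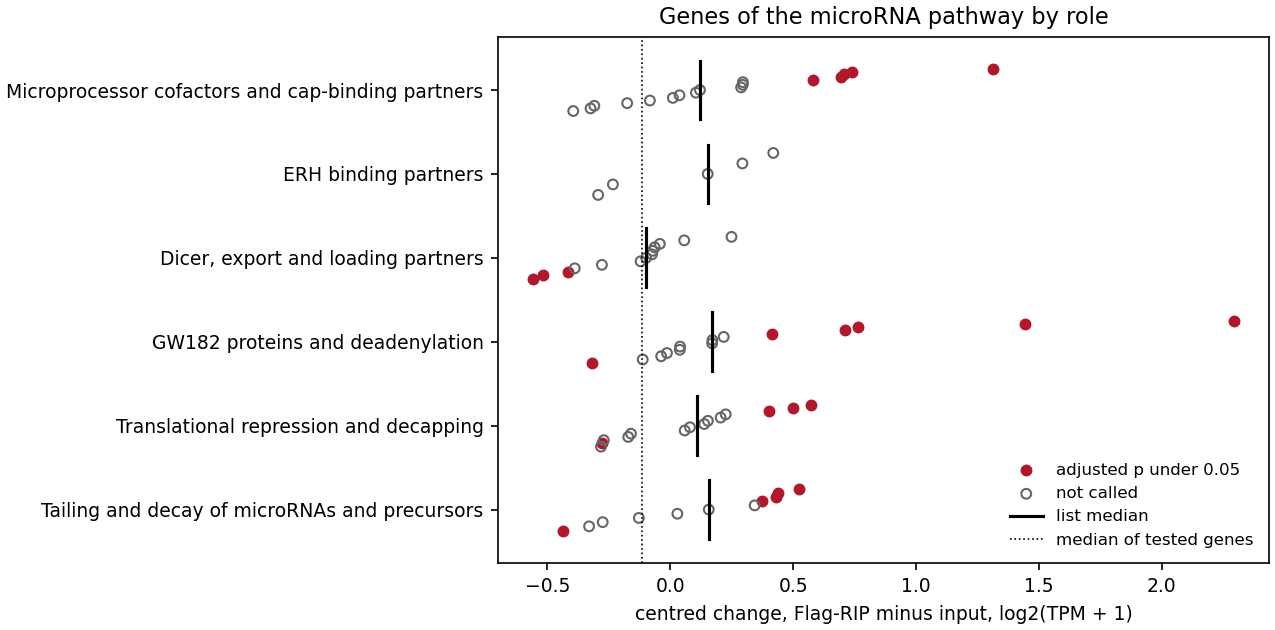
Centred change of the tested genes of 6 lists of the microRNA pathway, Flag-RIP minus input on the log2(TPM + 1) scale, with red points for genes with an adjusted p under 0.05 (limma, n = 2 libraries a group). List medians lie between -0.10 and 0.17, and the 3 called genes of the Dicer, export and loading list are below 0.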

How the data were processed

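The authors deposited 1 table of TPM values, with a column per library and 92 rows for ERCC spike-ins, synthetic RNAs added as standards. Per the submitters' processing notes, reads went through STAR and RSEM (version 1.2.31) on build GRCh38. The sources used here do not give the annotation, the filters or the strand setting. TPM hold no depth, so the spread is that of the 2 libraries a group. The limma fit draws each gene's variance toward a prior taken from all tested genes. In the main fit that prior had 5.72 degrees of freedom, against 2 for the gene itself. The members and lists were chosen with earlier results of these data known.

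Flag-RIP was compared with input with the limma package (version 3.58.1, under R 4.3.3) by lmFit and a trended eBayes, two-sided, on log2(TPM + 1) after each library was shifted to a common median. Genes averaging 1 TPM or more were tested, without spike-ins, with Benjamini-Hochberg adjustment over 10415 genes and a threshold of 0.05. The fold on this scale understates the change of low genes. The variance prior of limma was infinite without either Flag-RIP library, as deposited and with no filter. It was infinite too with the 20 most abundant rows left out and when scaled to the spike-ins. Those fits gave a gene's own spread no weight, so their p-values are not comparable with those of the main fit. The fit was checked on simulated data. Plain ratios are of mean TPM.

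Named list genes were the 2 with the largest called change in each list, or those of highest TPM where fewer were called. Older symbols were matched through RefSeq for 3 list genes, and 2 were not analysed here. Coordinates and sequences are RefSeq's (GRCh38.p14), in which all 10 symbols matched. Alternatives were pseudocounts of 0.1 and 5, other filters, scalings and variance models, leaving out each library, and the replicate number as a block. A search for QKI motifs in the mRNAs and a comparison of the Argonaute proteins were planned and not done, as no transcript or protein sequences were used here. The 5 genes nearest to ERH were to be named, and 1 is not reported here.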

Additional observations from a re-analysis of the deposited data

How the results depend on the processing

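Over 30 single genes and 15 other settings, 440 values were computed, of which 321 kept direction and side of the threshold, 48 lost a call, 29 gained one and 42 changed sign. ERH had 5.56 as deposited, 2.97 when scaled to the spike-ins, and 3.62 to 4.87 with 1 library left out. The counts of genes higher and lower, 1703 and 2545, became 7737 and 11882 with no filter, 1025 and 1171 with a mean TPM of 5 or more, 9608 and 33 as deposited, 3748 and 730 with the 20 most abundant rows left out, and 319 and 6306 when scaled to the spike-ins. With 1 library left out they ranged over 332 to 2294 higher and 322 to 3184 lower. Among the microRNA genes other than ERH, 3 higher and 1 lower became 8 and 0 with no filter and as deposited, 5 and 0 with the 20 most abundant rows left out, and 0 and 4 when scaled to the spike-ins, and with 1 library left out 0 to 4 were higher and 0 to 1 lower. The pathway lists, 17 higher and 6 lower, had 29 higher both with a pseudocount of 5, when 9 were lower, and with the 20 most abundant rows left out, when 1 was lower. They had 64 higher and 2 lower with no filter, 74 and 0 as deposited, 14 lower with a pseudocount of 0.1, and 1 and 45 when scaled to the spike-ins, with 3 to 20 higher and 0 to 9 lower when 1 library was left out. With the replicate number as a block the counts were 1720 and 2457 over all genes, 3 and 1 among the microRNA genes, and 18 and 2 in the pathway lists. The labels do not say what a replicate number stands for, and deviations of same-numbered libraries correlated at -0.07 across genes.

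Sign changes under the spike-in scaling were DROSHA -0.40, DGCR8 -0.050, XPO5 -0.60, DICER1 -0.0089, AGO1 -1.02, AGO2 -0.92, AGO3 -0.62, DDX17 -0.56, DDX5 -0.59, SLTM -0.73, DDX6 -0.26, LIMD1 -0.31, DIS3L2 -0.34, TUT4 (ZCCHC11) -0.11, MAP3K12 -0.44 and TNRC6B -0.49. As deposited, TARBP2 had 0.65, CIZ1 1.02, HSPA8 0.76, PRKRA 0.80, GALNT16 0.84, POLR1C 0.63, NCBP1 1.14 and FKBP4 0.90. With no filter the same genes had 0.11, 0.48, 0.22, 0.26, 0.30, 0.086, 0.60 and 0.36 in that order. With a pseudocount of 5, CIZ1 had 0.18, HSPA8 0.044 and FKBP4 0.072. NCBP1 had 0.11 with a pseudocount of 0.1 and 0.63 with the 20 most abundant rows left out. AGO1, at 0.03, had -0.15 with a pseudocount of 0.1, -0.036 with a mean TPM of 5 or more, -0.030 after quantile normalization, and -0.012 to 0.070 with 1 library left out. The median change of all tested genes was 1.2 as deposited, 0.45 with the 20 most abundant rows left out and -0.76 when scaled to the spike-ins. Genes moved by unequal amounts: under the spike-in scaling MIR1306 had 1.43 in place of 1.21 and AGO2 -0.92 in place of 0.38. The cause of the differences was not tested. TPM keep no depth, so what depth limits could not be measured here, and the low inputs of DICER1 and AGO4 are the values most open to it.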
